A study of Mus musculus with 12 samples.

Results

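The aryl hydrocarbon receptor (AHR) and 5 of its classical target genes were followed in isolated mouse islets under 6 conditions. The 6 genes, of 24503 in the deposited tables, are the receptor gene Ahr, the feedback repressor genes Ahrr and Tiparp, the cytochrome P450 genes Cyp1a1 and Cyp1b1, and the quinone reductase gene Nqo1. They were taken by gene name. Cyp1a1 was picked because its change with diazoxide ran opposite to its change with FK506, so its values in contrasts with either drug are given as a description, with no test, and the other 5 genes were taken for their place in the pathway. All 6 are annotated as protein-coding, and 5 of them passed the filter on low counts. Ahrr did not pass it.

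Total RNA was sequenced from islets isolated with collagenase, with 2 mice in each group and 12 libraries in all. Islets of C57BL/6 wild-type mice were kept at 11 mM glucose for 4 h with FK506, which inhibits the calcium-activated phosphatase calcineurin (11G+FK), at 11 mM glucose for 4 h with diazoxide, which opens the ATP-sensitive potassium channel of β cells and keeps them from depolarizing (11G+D), at 11 mM glucose for 4 h alone (11G), or at low glucose (2G). For 2G islets, marked as untreated, no time is given, so in a contrast with 2G the effect of glucose and that of incubation cannot be told apart. The other 4 libraries came from islets whose β cells alone carried channelrhodopsin-2, a cation channel opened by light. These islets were lit for 40 min with off periods of 5 min (ChR2(+)LIGHT) or left untreated (ChR2(-)LIGHT), and no glucose concentration is given for them. No time is given for the untreated ones, and no group held lit islets without the channel. In this contrast the opening of the channel, light itself and incubation cannot be told apart. The conditions were applied to islets of the same numbered mouse, and total counts ran from 15196061 to 22892255 per library. Every one of the 7 β-cell markers examined (among them Ins1, Ins2 and Mafa) was detected in all 12 libraries, with a summed level of 108000 to 176000 FPKM (fragments scaled to gene length and library depth). Whole islets hold several cell types, and in such bulk RNA fewer cells of a type and less RNA per cell cannot be told apart.

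AHR is a ligand-activated transcription factor held in the cytosol by a chaperone complex that includes HSP90 and p23. Dioxins, polycyclic aromatic hydrocarbons and metabolites of tryptophan bind it, after which it enters the nucleus, pairs with ARNT and binds xenobiotic response elements, whose core is GCGTG. CYP1A1 and CYP1B1 oxidize aromatic hydrocarbons and clear AHR ligands, AHRR competes with AHR for ARNT, and TIPARP ADP-ribosylates AHR and limits its activity. NQO1 reduces quinones by transferring a pair of electrons and is controlled by NRF2 as well as by AHR.

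The promoters of Cyp1a1, Cyp1b1 and Tiparp are shown because the values below turn on these 3 genes. RefSeq promoters (mouse build GRCm38.p6) were matched by symbol for 5 of the 6 genes, all but Ahr. Each line gives the 250 bases before the annotated start, 5′ to 3′ on the strand of the gene. They lie at chr9:57697363-57697612 (plus strand, Cyp1a1), chr17:79715062-79715311 (minus strand, Cyp1b1) and chr3:65528197-65528446 (plus strand, Tiparp). Capitals mark GCGTG, which reads as CACGC where it lies on the opposite strand.
Cyp1a1: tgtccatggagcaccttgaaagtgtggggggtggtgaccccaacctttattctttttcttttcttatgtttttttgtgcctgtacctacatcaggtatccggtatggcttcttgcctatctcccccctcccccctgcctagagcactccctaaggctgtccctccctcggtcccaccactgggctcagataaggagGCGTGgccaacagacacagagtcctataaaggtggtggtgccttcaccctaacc
Cyp1b1: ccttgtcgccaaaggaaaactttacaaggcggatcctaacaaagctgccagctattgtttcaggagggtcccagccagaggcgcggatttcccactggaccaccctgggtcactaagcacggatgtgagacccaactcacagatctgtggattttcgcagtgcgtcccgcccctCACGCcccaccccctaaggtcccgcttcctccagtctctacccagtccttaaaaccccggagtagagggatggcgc
Tiparp: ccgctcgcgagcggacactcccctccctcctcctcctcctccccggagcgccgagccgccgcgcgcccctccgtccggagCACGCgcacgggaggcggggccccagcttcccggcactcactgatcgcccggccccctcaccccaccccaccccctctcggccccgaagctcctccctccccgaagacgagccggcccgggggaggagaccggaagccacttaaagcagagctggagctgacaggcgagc

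Cyp1a1 holds 1 GCGTG, from 54 to 50 bases before the start and on the strand of the gene. Cyp1b1 holds 1 on the opposite strand, from 76 to 72 bases before the start, and Tiparp 1 on the opposite strand, from 170 to 166 bases before the start. The Ahrr promoter holds 3, beginning 107, 82 and 27 bases before the start, and 1 of them is part of the longer motif TNGCGTG. The Nqo1 promoter holds no match to either motif on either strand. Of 32817 RefSeq promoters of 250 bases, 28.1% hold GCGTG and 4.1% hold TNGCGTG on at least 1 strand. A single core match is thus common, and a match describes letters, not a bound site. Only these 250 bases were searched for each gene, so matches farther from the start are not counted.

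Ahr itself (ENSMUSG00000019256, chr12:35497974-35535038, minus strand) was expressed at a few FPKM in every library. The coordinates of the genes are those of the deposited tables, and their build is not stated in the sources used; their starts lie within 0 to 37 bases of the GRCm38 RefSeq starts for the 5 genes matched. Ahr stood at 4.67 FPKM in mouse 1 and 4.95 in mouse 2 of 11G+FK, at 6.64 and 3.70 in 11G+D, at 2.84 and 4.36 in 11G, and at 5.35 and 7.79 in 2G. Each mouse thus had its 2G library above its 11G library, whereas the diazoxide libraries lay above 11G in mouse 1 and below it in mouse 2. In ChR2 islets Ahr stood at 1.30 and 2.73 FPKM in ChR2(+)LIGHT and at 2.11 and 2.27 in ChR2(-)LIGHT, and the groups overlapped. By mean level the wild-type groups ran 2G (6.57 ± 1.73 FPKM, SD, n = 2), 11G+D (5.17 ± 2.08), 11G+FK (4.81 ± 0.201) and 11G (3.6 ± 1.08). Neighbours in that order overlapped except 11G+FK and 11G.

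Ahrr (ENSMUSG00000021575, chr13:74211118-74292331, minus strand) was near the limit of detection. It had 4 reads in each mouse of 11G+FK, 0 in both mice of 11G+D, 8 and 4 in 11G, and 21 and 3 in 2G. The mouse 1 library of 2G, which also held the highest Cyp1a1 and Cyp1b1 of all 12 libraries, had the highest count. In ChR2 islets Ahrr had 0 reads in both mice of ChR2(+)LIGHT, and 0 and 3 in ChR2(-)LIGHT. A count of 0 allows up to 3 reads, or 0.158 and 0.173 CPM (counts scaled to library size) in the 2 libraries of 11G+D, for counting error only. The main fits made no test of it. The edgeR fit with no filter on low counts did test it, and called it lower in 11G+D against 2G.

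Tiparp (ENSMUSG00000034640, chr3:65528410-65555145, plus strand) was expressed evenly over the wild-type libraries. It stood at 10.5 and 11.3 FPKM in 11G+FK, 8.08 and 7.35 in 11G+D, 9.88 and 7.63 in 11G, and 8.73 and 7.54 in 2G. The 11G+FK libraries were the highest of the 8, and the other 3 groups overlapped. Lit ChR2 islets had 8.83 and 11.4 FPKM of Tiparp in ChR2(+)LIGHT, against 3.36 and 5.67 FPKM in ChR2(-)LIGHT. Those groups did not overlap, and the dark libraries were the lowest of all 12.

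Cyp1a1 (ENSMUSG00000032315, chr9:57697613-57703822, plus strand) spanned the widest range of the 5 genes tested, from 48 to 1903 reads. It stood at 29.5 FPKM in mouse 1 and 27.0 in mouse 2 of 11G+FK, at 6.53 and 2.16 in 11G+D, at 24.1 and 7.92 in 11G, and at 37.8 and 6.15 in 2G. Mouse 1 was above mouse 2 in each condition, and the gap nearly closed in 11G+FK. On the log2 scale mouse 1 exceeded mouse 2 by 2.60 in 2G, 1.75 in 11G, 1.55 in 11G+D and 0.18 in 11G+FK. Of the 16087 genes tested, 1.2% had a larger gap in 2G and 1.55% in 11G, against 67.3% in 11G+FK. In ChR2 islets Cyp1a1 stood at 2.26 and 6.61 FPKM in ChR2(+)LIGHT, against 1.41 and 0.965 FPKM in ChR2(-)LIGHT. Both lit libraries were above both dark libraries, by a small margin in mouse 1. The wild-type group means ran 11G+FK (28.3 ± 1.8 FPKM, SD, n = 2), 2G (22 ± 22.4), 11G (16.0 ± 11.4) and 11G+D (4.34 ± 3.09). The 11G+FK libraries lay above both 11G libraries and within the range of 2G, and the 11G+D libraries overlapped 2G but lay below both 11G libraries.

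Cyp1b1 (ENSMUSG00000024087, chr17:79706953-79715041, minus strand) was low throughout, with 8 to 209 reads per library. It stood at 0.723 and 0.607 FPKM in 11G+FK, 0.453 and 0.0899 in 11G+D, 0.488 and 0.356 in 11G, and 2.12 and 0.537 in 2G. As with Cyp1a1, mouse 1 of 2G was the highest library, and mouse 2 of 11G+D the lowest of all 12. In ChR2 islets it stood at 0.149 and 0.110 FPKM in ChR2(+)LIGHT and at 0.192 and 0.164 in ChR2(-)LIGHT.

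Nqo1 (ENSMUSG00000003849, chr8:107388225-107403206, minus strand) differed least between wild-type mice, by at most 0.16 on the log2 scale within a condition. It stood at 8.54 and 7.94 FPKM in 11G+FK, 6.05 and 5.30 in 11G+D, 5.80 and 6.19 in 11G, and 9.08 and 9.37 in 2G. The 4 libraries of 2G and 11G+FK were thus all above the 4 of 11G and 11G+D. By mean level the groups ran 2G (9.23 ± 0.2 FPKM, SD, n = 2), 11G+FK (8.24 ± 0.422), 11G (6.00 ± 0.281) and 11G+D (5.68 ± 0.528), and only 11G and 11G+D overlapped. In ChR2 islets the mice differed more than the conditions, with 3.93 and 9.01 FPKM in ChR2(+)LIGHT and 4.70 and 8.18 in ChR2(-)LIGHT.

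**Figure D1:**
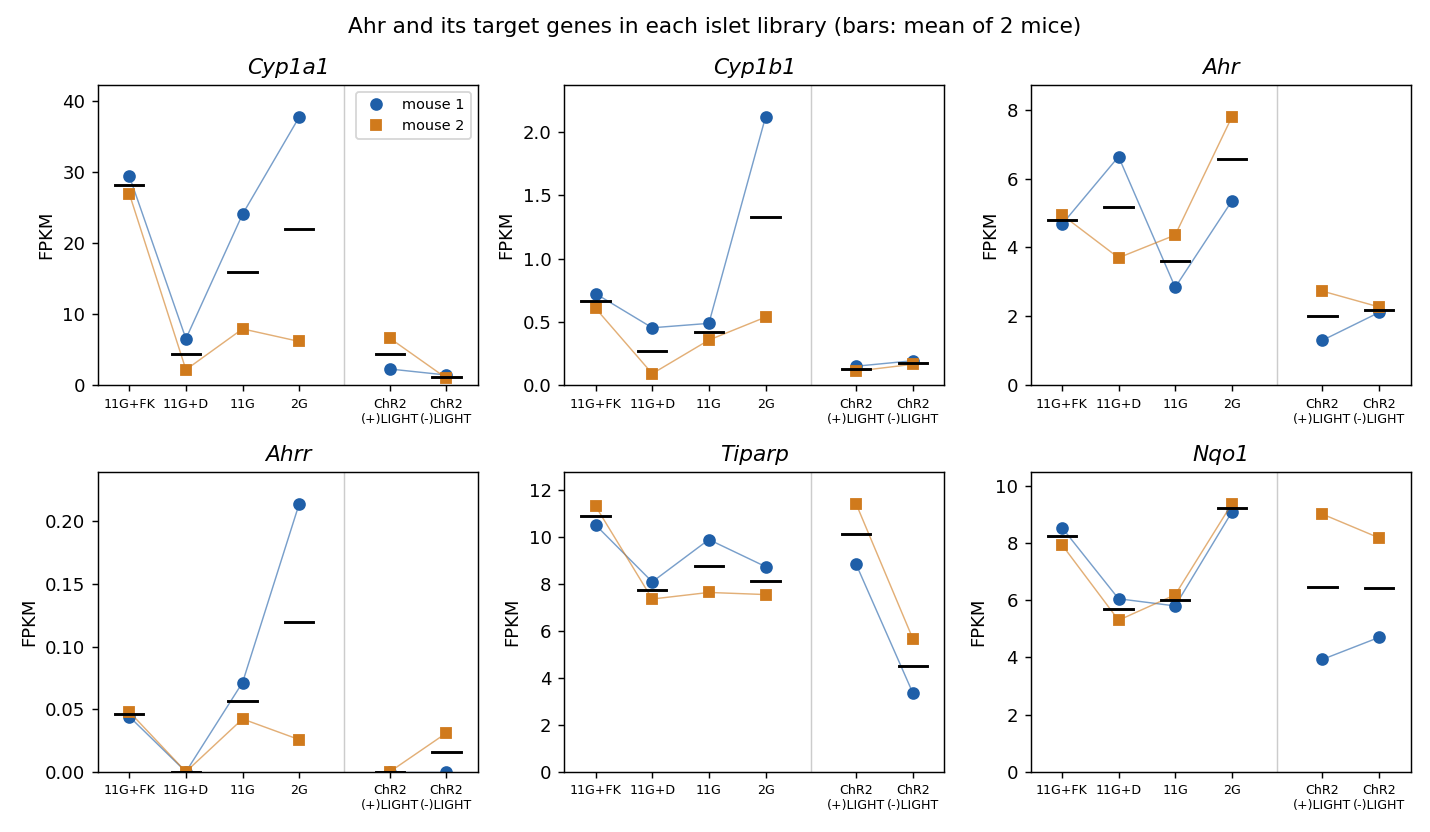
Level of each gene (FPKM, linear axis from 0) in every library, with 1 point per mouse, thin lines joining the libraries of a mouse and bars at the mean of 2 mice. Cyp1a1 lies between 27.0 and 29.5 FPKM in 11G+FK and between 2.16 and 6.53 in 11G+D, while the mice of 11G and 2G stand far apart. Tiparp lies between 8.83 and 11.4 in ChR2(+)LIGHT, against 3.36 to 5.67 in ChR2(-)LIGHT.

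With FK506, Cyp1a1 was higher than at 11 mM glucose alone in mouse 2 and nearly level in mouse 1. The log2 change of Cyp1a1 in 11G+FK against 11G was 0.18 in mouse 1 and 1.75 in mouse 2, and 1.09 ± 0.42 (SE) in the fit over all 8 wild-type libraries. Without the mouse 2 library of 11G+FK it was 0.06, so the higher level by which this gene was picked rests on 1 mouse. None of the 4 other genes tested was called (edgeR quasi-likelihood test, two-sided, adjusted p under 0.05 over all genes), against 0.23% of the 16087 genes (0.0124% higher, 0.218% lower). At an unadjusted p under 0.05 the count was 0 as well, and DESeq2 called 0. Nqo1 was higher by 0.45 and 0.34 on the log2 scale in mice 1 and 2 (0.40 ± 0.20, edgeR adjusted p = 0.50), Cyp1b1 by 0.64 ± 0.47 (edgeR adjusted p = 0.639) and Ahr by 0.37 ± 0.29 (edgeR adjusted p = 0.648). The log2 changes of Tiparp were -0.02 and 0.55, and 0.26 ± 0.17 in the fit (edgeR adjusted p = 0.602).

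With diazoxide, Cyp1a1 was lower than at 11 mM glucose alone in both mice and by like amounts. The log2 change of Cyp1a1 in 11G+D against 11G was -2.00 in mouse 1 and -1.79 in mouse 2, and -1.91 ± 0.44 in the fit. Again 0 of the other 4 genes tested were called by edgeR, against 3.79% of all genes (1.33% higher, 2.46% lower), with 0 at an unadjusted p under 0.05 and 0 by DESeq2. Cyp1b1 had log2 changes of -0.22 and -1.80 (-0.85 ± 0.51 in the fit, edgeR adjusted p = 0.416), and Ahr of 1.11 and -0.16 (0.53 ± 0.29, edgeR adjusted p = 0.371). The change of Ahr thus had opposite signs in the mice, and without the mouse 2 library of 11G+D its log2 change was 1.05 with an edgeR adjusted p of 0.0252. Tiparp and Nqo1 had log2 changes of -0.20 ± 0.17 and -0.10 ± 0.20 (edgeR adjusted p = 0.59 and 0.85). Both drug contrasts share the 11G libraries, so their values are set side by side only.

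Set against each other, the drugs leave the 11G libraries out of the contrast, though not out of the fit, whose spread and mouse estimates use them. In 11G+FK against 11G+D the log2 change of Cyp1a1 was 2.18 in mouse 1 and 3.54 in mouse 2, and 3.0 ± 0.46 in the fit, a description since Cyp1a1 was picked on these groups. Cyp1b1, Tiparp and Nqo1 were also higher with FK506 in both mice, none past the threshold. Their log2 changes were 1.49 ± 0.50 for Cyp1b1 (edgeR adjusted p = 0.19), 0.46 ± 0.17 for Tiparp (adjusted p = 0.227) and 0.50 ± 0.20 for Nqo1 (adjusted p = 0.258). Ahr had a log2 change of -0.15 ± 0.28 (edgeR adjusted p = 0.83). So 0 of the 4 genes tested were called, against 1.17% of all genes (0.783% higher, 0.385% lower), while 3 had an unadjusted p under 0.05 and DESeq2 called 0.

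At 11 mM glucose the receptor and its targets Cyp1b1 and Nqo1 had lower values than at low glucose in both mice, and none passed the threshold. In 11G against 2G the log2 changes of Ahr were -0.78 and -0.87 (-0.84 ± 0.28 in the fit, edgeR adjusted p = 0.116). Those of Nqo1 were -0.52 and -0.63 (-0.58 ± 0.20, edgeR adjusted p = 0.119), and those of Cyp1b1 -1.97 and -0.61 (-1.38 ± 0.46, edgeR adjusted p = 0.113). Cyp1a1 had log2 changes of opposite sign, -0.52 in mouse 1 and 0.33 in mouse 2 (-0.20 ± 0.41 in the fit, edgeR adjusted p = 0.813), and Tiparp had a log2 change of 0.16 ± 0.17 (adjusted p = 0.632). The 11G libraries were also part of the contrasts on which Cyp1a1 was picked. Its value here is thus not independent of that choice, and nothing is drawn from its p-value. Of the 5 genes tested 0 were called, against 4.84% of all genes (3.13% higher, 1.71% lower), 3 had an unadjusted p under 0.05 (Ahr, Cyp1b1 and Nqo1), and DESeq2 called 1, Ahr. Other cell types moved with this contrast. Of 10 acinar markers tested 8 fell, among them Cela3b and Ctrb1, with a summed level of 68.3 and 418 FPKM in 11G against 524 and 933 FPKM in 2G. Of the 11 acinar markers in the tables, Amy2b alone was at 0 in any library, in 6 of 12. Of 12 stellate and fibroblast markers 1 fell, Acta2, and all 12 had negative log2 changes (median -0.51). The ductal marker Krt7 fell (1 of 9), and Sst, the hormone of δ cells, rose (1 of 4). Their part in the Ahr, Cyp1b1 and Nqo1 values was not tested.

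Cyp1b1 fell in 11G+D relative to 2G. Its log2 change was -2.19 in mouse 1 and -2.41 in mouse 2 (-2.23 ± 0.48 in the fit, edgeR adjusted p = 0.0332), with 44 and 8 reads in 11G+D against 209 and 63 reads in 2G. It was 1 of the 4 genes tested, against 5.22% of all genes (2.31% lower, 2.92% higher). The call was kept with RLE factors (edgeR adjusted p = 0.0337), with no filter on low counts (0.000185) and with all 12 libraries in 1 fit (0.0233). DESeq2 made it too (DESeq2 adjusted p = 0.0014). The edgeR call was lost without the mouse 2 library of 11G+D (log2 change -1.84, adjusted p = 0.104), without the mouse 1 library of 2G (-1.56, adjusted p = 0.138) and without the mouse block (-2.25, adjusted p = 0.237). Nqo1 was lower by -0.57 and -0.78 on the log2 scale (-0.68 ± 0.20, edgeR adjusted p = 0.0792), short of the threshold. Ahr (-0.31 ± 0.28, edgeR adjusted p = 0.558) and Tiparp (-0.05 ± 0.17, adjusted p = 0.901) did not pass it. Cyp1a1 had log2 changes of -2.52 and -1.46 (-2.11 ± 0.44), given as a description. Of 10 acinar markers 4 fell in this contrast, 1 of 11 endothelial ones (Cldn5), 1 of 9 ductal ones (Krt7, log2 change -1.07 ± 0.16, edgeR adjusted p = 0.00918) and 0 of 12 stellate and fibroblast ones. Of 7 β-cell markers 1 rose, the glucose transporter gene Slc2a2 (1.50 ± 0.34, edgeR adjusted p = 0.0358). Summed stellate and fibroblast levels were 59.2 and 36.5 FPKM in 11G+D against 40.0 and 71.5 FPKM in 2G, and the part of other cell types in the Cyp1b1 value was not tested.

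FK506 at 11 mM glucose left none of the genes past the threshold relative to low glucose. In 11G+FK against 2G the log2 change of Cyp1a1 was -0.34 in mouse 1 and 2.08 in mouse 2 (0.89 ± 0.42, a description). Tiparp was higher by 0.29 and 0.53 on the log2 scale (0.41 ± 0.17, edgeR adjusted p = 0.222). The fitted log2 changes of Cyp1b1, Ahr and Nqo1 were -0.74, -0.46 and -0.18 (edgeR adjusted p = 0.391, 0.391 and 0.648). Of the 4 genes tested 0 were called by edgeR, against 2.06% of all genes (1.47% higher, 0.591% lower), 1 had an unadjusted p under 0.05 (Tiparp), and DESeq2 called 0.

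Tiparp was higher in lit than in untreated ChR2 islets, in both mice. Its log2 change in ChR2(+)LIGHT against ChR2(-)LIGHT was 1.35 in mouse 1 and 1.0 in mouse 2 (1.17 ± 0.20 in the fit of 4 libraries, edgeR adjusted p = 0.00902). It was the 1 gene called of 5 tested, against 0.844% of the 15171 genes (0.6% higher, 0.244% lower). Cyp1a1 had log2 changes of 0.63 and 2.74 (1.72 ± 0.41), larger than that of Tiparp in mouse 2 alone, and missed the threshold (edgeR adjusted p = 0.0595). Ahr (-0.74 and 0.26), Nqo1 (-0.30 and 0.13) and Cyp1b1 (-0.39 and -0.55) were not past it. In the fit their log2 changes were -0.23 ± 0.28 for Ahr, -0.08 ± 0.27 for Nqo1 and -0.50 ± 0.64 for Cyp1b1 (edgeR adjusted p = 0.848, 0.96 and 0.858).

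The Tiparp call depends on the model, and was kept with RLE factors, with no filter on low counts and by DESeq2. It was lost without the mouse block (adjusted p = 0.998), with all 12 libraries in 1 edgeR fit (0.0656) and when any of the 4 libraries was left out of that fit (0.181 to 0.429), although the log2 change stayed between 0.98 and 1.33. In the authors' deposited table, which compares 1 library with 1 library, Tiparp had log2 changes of 1.34 and 0.99 with adjusted p-values of 0.305 and 0.808. Endothelial markers moved with light too. Flt1 and Cdh5 rose, 2 of 11 tested (log2 changes of 0.93 ± 0.15 and 0.76 ± 0.16, edgeR adjusted p = 0.00401 and 0.0293), and the summed level of the 11 was 459 and 494 FPKM in ChR2(+)LIGHT against 356 and 360 FPKM in ChR2(-)LIGHT, with none at 0. All 11 endothelial markers had a positive change, and 6 had an unadjusted edgeR p under 0.05. Acinar markers summed to 345 and 54.0 FPKM in ChR2(+)LIGHT against 431 and 272 FPKM in ChR2(-)LIGHT, and 1 of 10 tested fell (Cela3b). Of these 10 acinar markers, 9 had an unadjusted edgeR p under 0.05 and 0 a positive change (median -1.46), while DESeq2 called 0. The macrophage marker Cd14 fell (-0.91 ± 0.16, edgeR adjusted p = 0.00867), 1 of 9 tested. The β-cell transcription factor gene Nkx6-1 fell as well (-0.75 ± 0.15, edgeR adjusted p = 0.0216), 1 of 7 β-cell markers, of which 3 had an unadjusted p under 0.05 and 2 a positive change. The part of these markers in the Tiparp value was not tested.

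**Figure D2:**
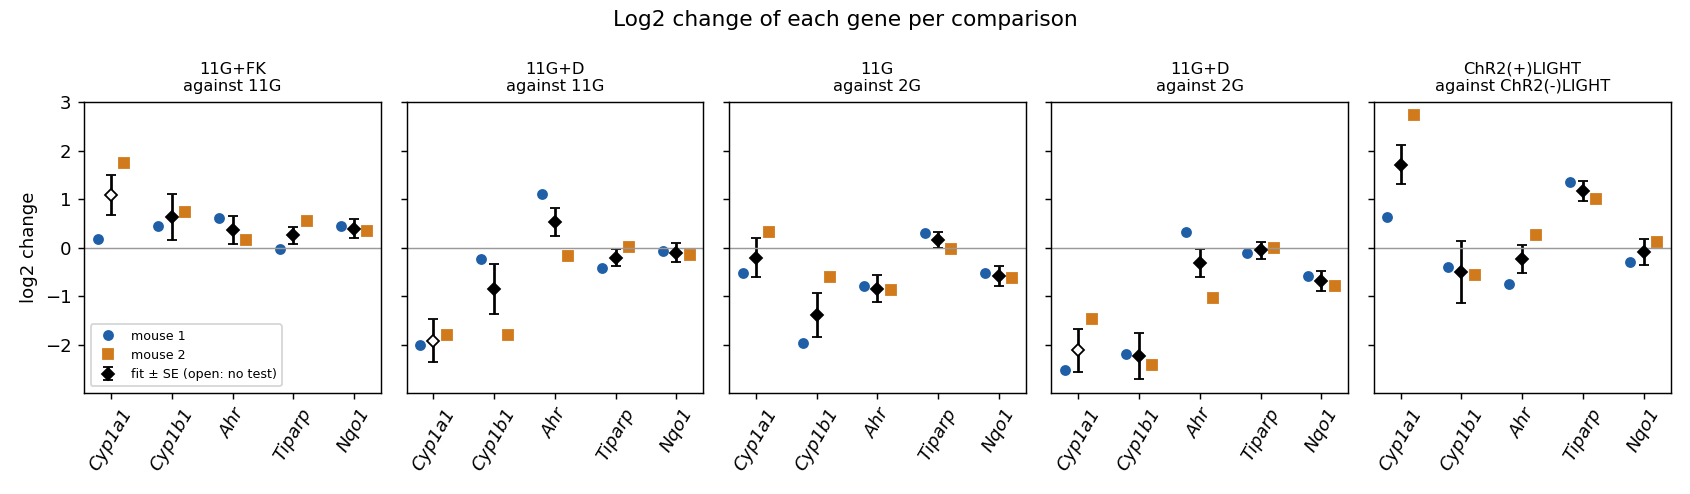
Log2 change of the 5 genes past the filter in 5 comparisons, with 1 coloured point per mouse and black diamonds for the edgeR fit ± SE; open diamonds carry no test. Cyp1a1 lies near -2 in both mice for 11G+D against 11G (-2.00 and -1.79) and splits by mouse for 11G+FK against 11G (0.18 and 1.75), while Tiparp lies at 1.35 and 1.0 with light.

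**Figure D3:**
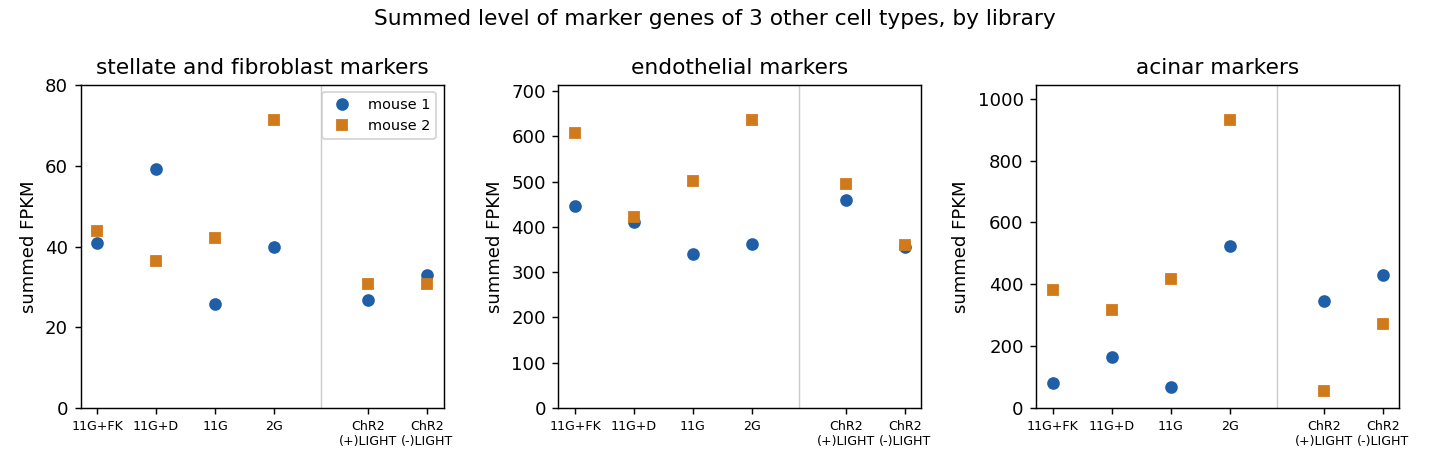
Summed FPKM (linear axis from 0) of marker genes of 3 other cell types in every library, 1 point per mouse. Acinar markers are highest in 2G (524 and 933), endothelial markers are higher in ChR2(+)LIGHT (459 and 494) than in ChR2(-)LIGHT (356 and 360), and stellate and fibroblast markers overlap between most groups.

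Arnt, the HSP90 genes Hsp90aa1 and Hsp90ab1, and the p23 gene Ptges3 each had a higher FPKM than Ahr in all 12 libraries. Of 11 genes of the AHR complex and its cofactors 1 rose in 11G against 2G, Arnt, the partner that AHR needs on DNA, against 3.13% of all genes called higher. Arnt stood at 39.4 and 29.7 FPKM in 11G against 23.8 and 18.9 FPKM in 2G (log2 change 0.74 ± 0.15, 0.86 and 0.62 by mouse, edgeR adjusted p = 0.0265). The median of the 11 was -0.22 in that contrast, against -0.01 over all genes. In 11G+FK against 11G, 11G+D against 11G and light against dark 0 of the 11 were called, with medians of 0.02, 0.00 and -0.05, while 2 of 11 had an unadjusted p under 0.05 in each and DESeq2 called 0. Over all genes 0.23%, 3.79% and 0.844% were called in these contrasts.

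Of 18 other genes that AHR induces, 11 passed the filter in wild-type islets. Cyp1a2, the liver relative of Cyp1a1, was at 0 in 11 of 12 libraries. In 11G against 2G all 11 had negative log2 changes (median -0.72, range -1.93 to -0.13, against a median of -0.01 over all genes). Yet edgeR called 0, against 4.84% of all genes, with 5 at an unadjusted p under 0.05 and 1 by DESeq2. That median is the value of Ugt1a6a (-0.72 ± 0.73, -0.06 and -1.50 by mouse), at a mean of 0.137 FPKM. Several others of the 11 also averaged under 1 FPKM. The medians were 0.54 in 11G+FK against 11G and 0.37 in 11G+D against 11G, with 8 of 11 positive and 0 called in each (2 and 1 at an unadjusted p under 0.05, 0 and 1 by DESeq2). Over all genes 0.23% and 3.79% were called by edgeR. In 11G+D against 2G 1 of 11 fell and 0 rose, against 2.31% and 2.92% of all genes, and DESeq2 called 2. The gene that fell was Slc7a5, an amino acid transporter subunit, at 40.9 and 58.4 FPKM in 11G+D against 87.5 and 88.2 FPKM in 2G (log2 change -0.82 ± 0.17, edgeR adjusted p = 0.0279). With light 0 of 10 tested were called, against 0.844% of all genes, with a median of -0.20, 1 at an unadjusted p under 0.05 and 0 by DESeq2.

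Enzymes that turn tryptophan into kynurenines or other AHR ligands differed widely in level. Ido1, which opens the tryptophan ring, ran from 0 to 0.346 FPKM and Kmo from 0.0358 to 0.201 FPKM over the 12 libraries. Ccbl1, a kynurenine transaminase, ran from 6.59 to 17.6 FPKM and Il4i1, an amino acid oxidase, from 14.6 to 27.5 FPKM. Of 9 such genes present, 6 were tested in wild-type islets and 5 in ChR2 islets, and edgeR called 0 in every contrast, with at most 2 at an unadjusted p under 0.05 and 1 by DESeq2. The share called over all genes ran from 0.23% (11G+FK against 11G) to 5.22% (11G+D against 2G).

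NRF2, encoded by Nfe2l2, controls Nqo1 together with AHR, and 22 of its other targets were tested. In 11G against 2G 2 of 22 fell, against 1.71% of all genes called lower, with a median of -0.32. Hmox1, the heme oxygenase, stood at 33.6 and 55.1 FPKM in 11G against 68.3 and 84.5 FPKM in 2G (log2 change -0.76 ± 0.18, edgeR adjusted p = 0.0429). Gclm, a subunit of the enzyme that makes the precursor of glutathione, stood at 15.5 and 15.6 FPKM in 11G against 29.1 and 21.6 FPKM in 2G (-0.64 ± 0.14, edgeR adjusted p = 0.0338). The Nqo1 value of -0.58 ± 0.20 in the same contrast is of like size, without a call. Neither drug gave a call among the 22 relative to 11G, with medians of 0.20 for FK506 and 0.10 for diazoxide, 4 and 5 genes at an unadjusted p under 0.05 and 0 by DESeq2 in each. Over all genes 0.23% were called with FK506 and 3.79% with diazoxide. In 11G+D against 2G 1 of 22 rose, against 2.92% of all genes called higher, namely Keap1, the adaptor that marks NRF2 for degradation (0.71 ± 0.14, edgeR adjusted p = 0.0239). The median of the 22 was -0.18 in that contrast, and 7 had a positive change. With light 1 of 22 fell, against 0.244% of all genes called lower, namely Gsta3, a glutathione transferase. It stood at 1.18 and 2.80 FPKM in ChR2(+)LIGHT against 4.90 and 5.23 FPKM in ChR2(-)LIGHT (-1.48 ± 0.31, edgeR adjusted p = 0.0308). The median of the 22 was 0.10 with light, and 13 had a positive change.

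**Figure D4:**
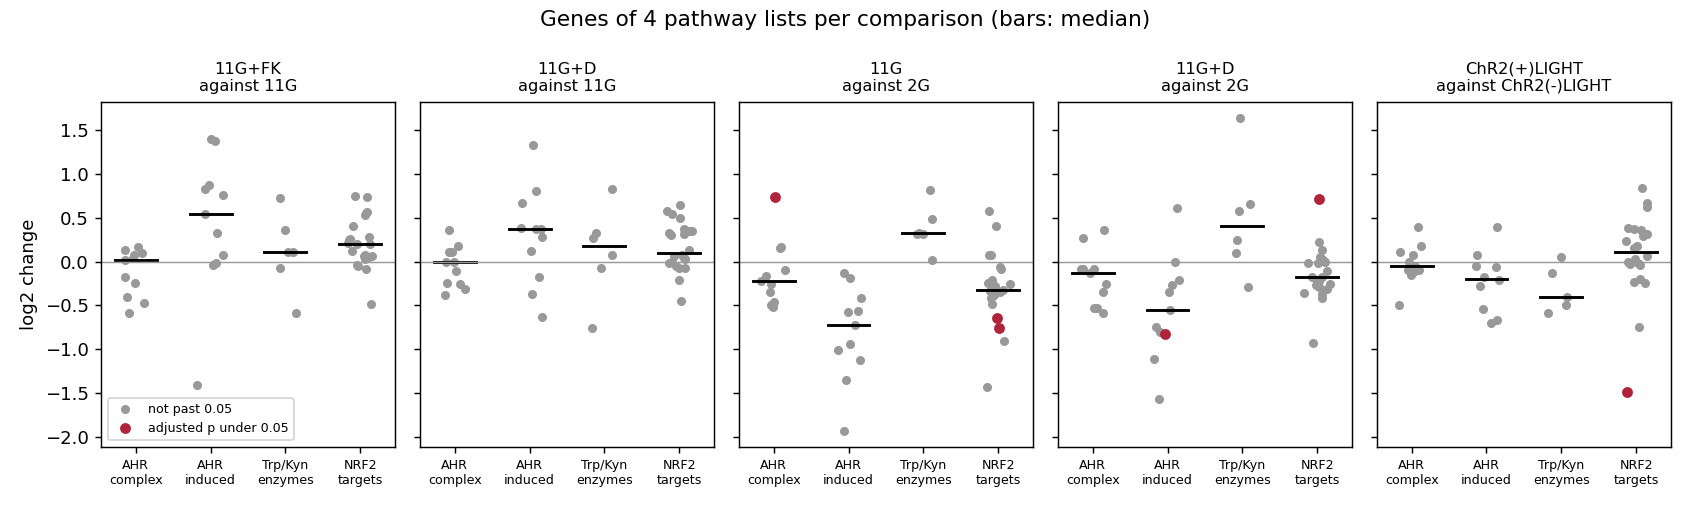
Log2 change of each tested gene of 4 lists (AHR complex and cofactors, other AHR-induced genes, tryptophan and kynurenine enzymes, NRF2 targets) in 5 comparisons; bars mark the median and red points an edgeR adjusted p under 0.05. The AHR-induced genes lie below 0 in 11G against 2G (median -0.72) with none in red, and above 0 by median with either drug (0.54 with FK506, 0.37 with diazoxide). Several of them average under 1 FPKM.

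Among the genes themselves, the correlation of patterns over the 8 wild-type libraries ran from -0.413 to 0.821. After centring each mouse, log2 CPM of Cyp1a1 correlated with Cyp1b1 by 0.771, with Tiparp by 0.739, with Nqo1 by 0.586 and with Ahr by -0.141 (Pearson's r, 8 libraries of 2 mice, a description). Cyp1b1 and Nqo1 correlated by 0.821. Ahr correlated with Nqo1 by 0.555, with Cyp1b1 by 0.417 and with Tiparp by -0.413, and Tiparp with Cyp1b1 by 0.206 and with Nqo1 by 0.205. These libraries share mice and depth, and their number is small. Among 12915 other genes averaging 1 FPKM or more, those most like Cyp1a1 were Gm15446 (r = 0.976), Flcn (0.975), Gm20400 (0.966), Gm8995 (0.962) and Gm15612 (0.961). Cyp1b1 was most like Nek5 (0.994), Msrb2 (0.992), Nrip1 (0.986), Ccdc88c (0.982) and Lrrc1 (0.981), among which Nrip1 is also on the list of AHR cofactors. Ahr was most like Fbln2 (0.997), Ppic (0.988), Anxa13 (0.987), Slc25a45 (0.982) and Penk (0.979). Tiparp was most like Helb (0.973), Tmem145 (0.960), 1500011K16Rik (0.955), Rbmx (0.950) and Sox12 (0.946), and Nqo1 was most like Rnaseh2b (0.990), Yars (0.986), Sh3d21 (0.985), Trib3 (0.985) and Fkbp3 (0.985). Over all 12 libraries the 5 most alike shared 0 genes with these for Cyp1a1, Tiparp and Nqo1 and 1 for Cyp1b1 and Ahr.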

How the data were processed

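Total RNA of isolated mouse islets had been sequenced by a provider, per the labels' protocols. Build, aligner, counter and strand setting were not stated in the sources used. Per the file headers, each of 8 deposited tables compares 2 libraries of 1 mouse and holds raw read counts and FPKM per gene, which were used here. It also holds normalized counts scaled per table by the authors (a signal, not used), a log2 fold change deposited by the authors, and p-values deposited by the authors with their adjusted values. The tables were joined by gene identifier, and libraries listed in several tables differed at 0 values. Genes missing from a table were taken as 0 counts.

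The raw counts went into edgeR 4.0.16 (R 4.3.3) for a two-sided quasi-likelihood test. Libraries were scaled by TMM, low genes removed by filterByExpr (minimum count 10, total 15), mouse number entered as a block, and p-values were adjusted by Benjamini-Hochberg over every gene in the fit, with a threshold of 0.05. A fit held the 8 wild-type libraries (16087 genes), leaving 3 residual degrees of freedom, and another the 4 ChR2 libraries (15171 genes), leaving 1. Each had a biological coefficient of variation of 16.2%. SE is the size of the log2 change over the square root of F. Changes per mouse used log2 CPM with a prior count of 1. Mouse numbers in the labels recur in each condition, and same-numbered libraries deviated together from their group means across genes (r of 0.15 to 0.46 in wild type, 0.50 in ChR2). No sequencing run is given in the labels, so a gap between mice cannot be told apart from one between runs. With 2 mice per group, the p-values rest on few degrees of freedom. The fits were tested on simulated data.

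The genes and gene lists were chosen with earlier results of these data known. All 6 genes were named, and from each list up to 4 genes past the threshold with a mean of at least 1 FPKM. Per gene past the filter, the 5 with the highest Pearson correlation over the wild-type libraries were named too. Cyp1a2, Ugt1a6a, Ido1, Kmo, Ccbl1, Il4i1 and the chaperone genes were named after their values were seen. Alternatives were no block, RLE factors, no filter, all 12 libraries in 1 fit, DESeq2 1.42.0, CPM over raw totals, and leaving out each library. Withheld genes are not reported here.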

Additional observations from a re-analysis of the deposited data

How the results depend on the processing

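The mouse block (the replicate block) decided most calls over all genes. Without it edgeR called 68 genes in 11G against 2G (778 with it), 59 in 11G+D against 11G (610), 1 in 11G+FK against 11G (37), 5 in 11G+FK against 11G+D (188), 10 in 11G+D against 2G (840), 5 in 11G+FK against 2G (332) and 0 with light (128; 654 at an unadjusted p under 0.05). Without it 0 of the 4 genes tested were called in 11G+D against 2G and 0 of the 5 tested with light. Here and below, counts among the 6 genes leave out Cyp1a1 in contrasts with a drug, where it carries no test. They include Ahrr only in fits that do not filter it out. With no filter on low counts the counts over all genes, in the same order, were 1672, 1085, 309, 617, 1573, 992 and 419, and 2 of the 6 genes were called in 11G against 2G, 1 in 11G+FK against 11G+D, 2 in 11G+D against 2G and 2 with light. Those in 11G+D against 2G were Cyp1b1 and Ahrr. The Ahrr call rests on 0 reads in both mice of 11G+D against 21 and 3 in 2G. With all 12 libraries in 1 fit 58 genes were called in 11G+FK against 11G and 6 with light, 0 of the 6 among them. DESeq2 called 1286 genes in 11G against 2G, 224 in 11G+FK against 11G, 481 in 11G+FK against 11G+D and 754 in 11G+FK against 2G, and 1 of the 6 in 11G against 2G. With RLE factors 2 of the 6 were called with light, Tiparp and Cyp1a1.

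Leaving out 1 library at a time gave 42 to 1405 genes in 11G against 2G, 45 to 765 in 11G+D against 11G, 0 to 11 in 11G+FK against 11G, 3 to 486 in 11G+FK against 11G+D, 246 to 1140 in 11G+D against 2G, 4 to 162 in 11G+FK against 2G and 0 to 29 with light. The 0 in 11G+FK against 11G, without the mouse 2 library of 11G+FK, came with 613 genes below an unadjusted p of 0.05, and the 0 with light, without either mouse 2 library, beside 1187 and 1184. Among the 6 genes these fits called 0 to 1 in 11G+D against 11G, 0 to 2 in 11G+D against 2G and 0 to 0 with light. For light they were made within the fit of 12 libraries, so the lone library is assumed to vary like the other groups.

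Signs of tested log2 changes reversed in 13 alternatives and those of untested ones in 1, all of them fits without 1 library; the range over these fits follows. The untested one was Cyp1a1 in 11G+FK against 2G, which ran from -0.08 (without 11G+FK mouse 2) to 1.73. Cyp1a1 ran from -0.79 to 0.69 in 11G against 2G (the last without 2G mouse 1), and Cyp1b1 from -0.03 (without 11G+FK mouse 2) to 1.22 in 11G+FK against 11G. Tiparp ran from -0.08 to 0.37 in 11G against 2G and from -0.42 to 0.02 in 11G+D against 11G (reversed without 11G mouse 1), and from -0.12 to 0.02 in 11G+D against 2G (without 11G+D mouse 1). Ahr ran from -0.10 to 1.05 in 11G+D against 11G and from -0.66 to 0.49 in 11G+FK against 11G+D (both reversed without 11G+D mouse 1). In 11G+D against 2G Ahr ran from -0.93 to 0.21, with 0.02 without 2G mouse 2 and 0.21 without 11G+D mouse 2. With light Ahr ran from -0.77 to 0.25 and Nqo1 from -0.32 to 0.12, with 0.24 and 0.11 without the lit library of mouse 1 and 0.25 and 0.12 without the dark one. The causes were not tested. Of the tested values 240 kept direction and side of the threshold, 8 passed it newly and 9 no longer did. Of the untested values of Cyp1a1 with the drugs 40 moved by less than 1 SD and 4 by more. All 44 ratios of mean levels from CPM over raw totals or from FPKM moved by less than 1 SD. That SD is of the log2 changes of the 2 mice, so it is wide where the mice differ, and a value within it need not be stable. The move of Cyp1a1 in 11G+FK against 11G from 1.09 to 0.06, without 11G+FK mouse 2, counts as less than 1 SD. Ahrr, at 0 to 21 reads, is limited by depth.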
